A study of Mus musculus with 22 samples.

Results

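Livers taken at ZT18 were compared with livers taken at ZT14 in mice that lack adiponectin, over every feature of the array, as the mean of the ZT18 arrays minus the mean of the ZT14 arrays. Zeitgeber time (ZT) counts hours from lights on, so with 12 h of light ZT14 lies 2 h into darkness and ZT18 lies 6 h into it. The comparison used 7 of the 22 arrays of the series, 4 from ZT14 (a to d) and 3 from ZT18 (a to c), and all 22206 features. The arrays of the other 4 times, ZT2, ZT6, ZT10 and ZT22, entered only the estimate of the spread and the comparison with neighbouring steps.

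Both groups were livers of male mice, 3 to 8 months old, that carry the B6;129-Adipoqtm1Chan/J knockout allele in every tissue, on a C57BL/6J background. They were housed in groups with free chow and lights on for 12 h of each day, and each array was taken as 1 mouse, since the labels speak of 3 to 4 mice per time. RNA was extracted with TRIzol and 100 ng was hybridised to a Clariom S array, which reports 1 expression value per transcript cluster. Wild-type livers are not analysed here, so the comparison asks what differed between these times in the knockout and holds no effect of the missing hormone. Values are read as log2, a difference of 1 being a doubling. Array values are always given in the order of the array letters.

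Mice eat mostly at night, and the liver clock turns over at the same time of day. In that clock BMAL1 (gene Arntl) and CLOCK switch on their own repressors, the PER and CRY proteins and CIART, and also REV-ERBalpha (Nr1d1), which binds ROR response elements and holds Arntl down. Between early and middle night some of these repressors run down and Arntl climbs. In the same hours food reaches the liver, which stores glycogen and makes sterols, bile acids and lipids, while stress hormones, which are highest around dusk in nocturnal animals, decline.

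Before any result, 2 of the ZT14 arrays have to be set apart. Tff3, a trefoil peptide gene, measured 3.08, 13.26, 3.25 and 13.63 at ZT14 and 2.31, 2.97 and 2.33 at ZT18. ZT14b and ZT14d were high, and the other 5 arrays lay at the low end of the scale. The fitted Tff3 difference was -5.77 ± 2.27 with an adjusted p of 0.347, and without these arrays it was -0.63 (adjusted p = 0.973). The same arrays stood apart widely: both lay above ZT14a and ZT14c in 4959 features (22.3%) and below them in 5040 (22.7%). Several marker lists of other cell types moved with them. The log2 of the summed linear values of 8 stellate cell markers was 15.36 and 15.01 in ZT14b and ZT14d against 14.09 and 14.16 in ZT14a and ZT14c, with 14.34 to 14.50 at ZT18. For 6 cholangiocyte markers it was 13.02 and 13.03 against 11.44 and 11.85, with 11.67 to 11.89 at ZT18. For 6 adipocyte markers it was 8.50 and 8.67 against 7.59 and 7.54, and for 7 lymphocyte markers 7.52 and 7.61 against 6.84 and 6.77. Both arrays lay above ZT14a and ZT14c in 5 of 8 stellate, 2 of 6 cholangiocyte, 2 of 6 adipocyte and 5 of 7 lymphocyte markers. Both lay below them in 0, 2, 1 and 0. They were not set apart by the neutrophil sum (7.08, 7.09, 7.12 and 6.59) or the endothelial sum (13.12, 12.65, 12.63 and 12.75). Kupffer cell (10.33, 11.10, 10.10 and 10.68) and erythroid sums (10.69, 10.97, 10.70 and 10.84) were higher in ZT14b and ZT14d. The 8 hepatocyte markers summed to 22.28 and 22.30 against 22.34 in each of ZT14a and ZT14c, and to 22.34 to 22.35 at ZT18. Alb, the albumin gene that defines hepatocytes, lay between 19.70 and 19.86 at ZT14 and between 19.84 and 19.86 at ZT18, as the liver label implies. The highest values of any feature on these arrays spanned the same ranges. Alb thus lay at the top of the scale, where a difference may not show. The values hold no zeros and no detection calls, so no marker could be called absent, and the part of these cells in the results was not tested. In whole liver, fewer cells of a type and less RNA per cell cannot be told apart.

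The targeted gene, Adipoq, measured 3.96, 4.69, 3.33 and 3.63 at ZT14 and 4.07, 3.83 and 3.46 at ZT18. These values lie near the lower quartile of an array (median over arrays 3.785), where a level cannot be told from background, and the groups overlap. The difference was -0.12 ± 0.24 (adjusted p = 0.935). The liver makes little adiponectin, so this level checks the genotype little. Arrays within ZT14 correlated at 0.981 to 0.992, arrays within ZT18 at 0.994, and arrays across the times at 0.984 to 0.992, and 0 pairs were identical. The number of arrays limits the precision.

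Between ZT14 and ZT18, 80 features rose (0.36% of those tested) and 41 fell (0.185%), together 0.545%, at a limma adjusted p under 0.05 across all 22206 features. The median difference of all features was 0.01, and 2229 features had an unadjusted p under 0.05. Of the features that rose 72 have 1 gene symbol, and of those that fell 38. The typical rise was 2.33-fold and the typical fall 2.79-fold (medians), and 64 of the 80 rises and 35 of the 41 falls reached 2-fold. The ZT18 arrays lay wholly above or below the ZT14 arrays in 79 of the 80 and in 41 of the 41, against 11.2% of all features. The exception was Ip6k2, named after its values were seen. These features were called from the same arrays, so the separation is largely fixed by that choice and adds no support.

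These counts depended on the arrays. Without ZT14b and ZT14d 20 features rose (0.0901%) and 11 fell (0.0495%), together 0.14%. Of the first set 17 of 80 and 7 of 41 were called in both fits, and the direction was the same in 80 of 80 and 41 of 41. The arrays of the 2 times did not overlap in 79 of the 80 and 41 of the 41. Leaving out arrays cannot turn the direction of such features, so the kept direction is no test of them. Leaving out single arrays gave 47 rises and 37 falls without ZT14a, 37 and 10 without ZT14b, 141 and 78 without ZT14c, and 40 and 16 without ZT14d. It gave 33 and 11 without ZT18a, 16 and 8 without ZT18b, and 20 and 8 without ZT18c. ZT14b and ZT14d both lay below the other pair in 37 of the 80 features that rose (22.7% of all features) and above it in 12 (22.3%). In the 41 that fell both lay above it in 19 and below it in 4. The differences of the 37 and of the 19 are larger with them than without. The median difference of the rises was 1.22 with all arrays and 1.15 without the pair, and that of the falls was -1.48 and -1.21.

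**Figure D1:**
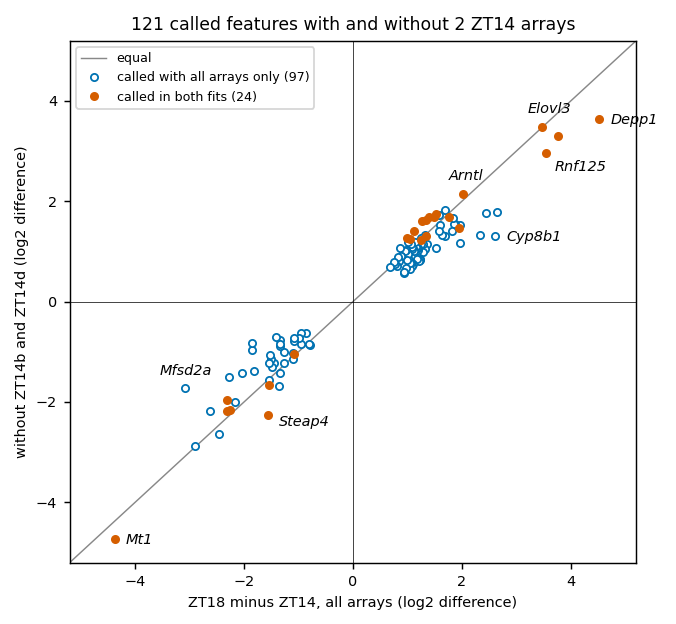
Difference ZT18 minus ZT14 (log2) of the 121 called features, with all arrays on the horizontal axis and without ZT14b and ZT14d on the vertical axis; the line marks equal values and filled points were called in both fits. Every feature keeps its sign, Mt1 and Elovl3 lie near the line, and Mfsd2a and Cyp8b1 lie well inside it.

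The genes given with full values below are the 15 largest rises and the 15 largest falls that met the naming rule, then members of gene lists. Adjusted p-values come from limma, differences carry limma's SE with n = 4 arrays at ZT14 and n = 3 at ZT18, and the range of adjusted p covers up to 16 alternative settings of the analysis.

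**Figure D2:**
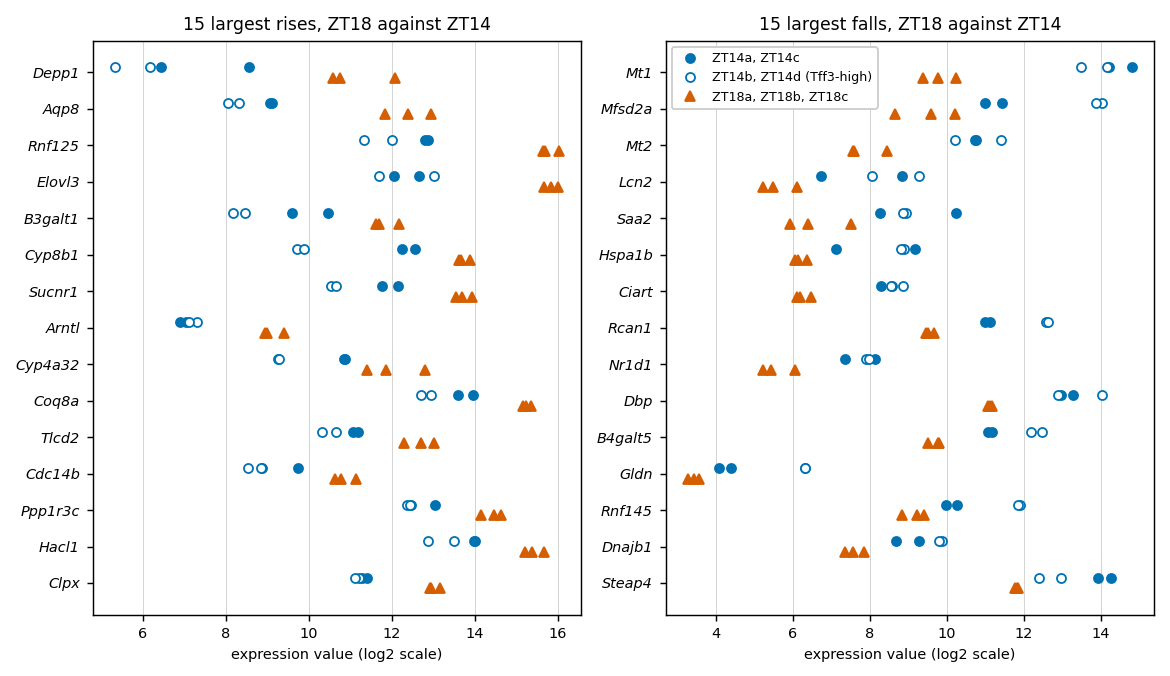
Expression value (log2 scale, horizontal axis) in each array for the 15 largest rises (left) and the 15 largest falls (right); circles are ZT14, open where the array was high in Tff3, and triangles are ZT18. In all 30 genes the triangles lie on 1 side of the circles, as the naming rule required. In Cyp8b1, Rcan1 and Mfsd2a the open circles lie farther from the triangles than the filled ones.

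In the core clock list 3 genes passed the test: the activator gene Arntl rose and the repressor genes Nr1d1 and Ciart fell. Arntl, which encodes BMAL1, measured 6.90, 7.29, 7.03 and 7.12 at ZT14 and 8.98, 9.40 and 8.93 at ZT18. Every ZT18 array lay above every ZT14 array, with little spread within either time. It rose by 2.02 ± 0.32 (SE), or 4.05-fold (adjusted p = 0.00219), and by 2.14 without ZT14b and ZT14d (adjusted p = 0.0255; range over the alternatives 0.000118 to 0.036). Nr1d1, which encodes the nuclear receptor that represses Arntl, measured 8.14, 7.90, 7.35 and 7.99 at ZT14 and 6.07, 5.22 and 5.45 at ZT18. All ZT18 values were lower. It changed by -2.27 ± 0.32 (adjusted p = 0.000748), and by -2.17 without the pair (adjusted p = 0.0255; range 0.000102 to 0.0255). Ciart, a repressor that binds BMAL1 and CLOCK, measured 8.30, 8.86, 8.59 and 8.55 at ZT14 and 6.20, 6.47 and 6.12 at ZT18. The groups were again apart, and the change was -2.31 ± 0.33 (adjusted p = 0.000773), or -2.18 without the pair (adjusted p = 0.0265; range 2.7e-05 to 0.0265). These calls held in each of the 7 single-array omissions.

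The start regions of 2 of these genes are shown because the letters their known regulators bind lie in them. The Ciart window (chr3:95882179-95882478, minus strand) holds the E-box CACGTG, the letters that BMAL1 and CLOCK bind, at -116, -58 and -44 from the annotated start. One of the Arntl windows (chr7:113207261-113207560, plus strand) holds the RORE letters TAGGTCA, which ROR and REV-ERB receptors bind, at 31 after its start. Windows reach from 250 bases before to 50 after a start, come from RefSeq on GRCm38.p6, and are written 5′ to 3′ with the matching letters in capitals.
Ciart: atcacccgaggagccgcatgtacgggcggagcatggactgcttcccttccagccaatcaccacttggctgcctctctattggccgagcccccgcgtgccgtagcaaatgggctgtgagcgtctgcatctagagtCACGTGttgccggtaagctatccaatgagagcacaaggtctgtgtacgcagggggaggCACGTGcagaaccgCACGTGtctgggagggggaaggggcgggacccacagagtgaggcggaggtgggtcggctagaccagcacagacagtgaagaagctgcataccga
Arntl: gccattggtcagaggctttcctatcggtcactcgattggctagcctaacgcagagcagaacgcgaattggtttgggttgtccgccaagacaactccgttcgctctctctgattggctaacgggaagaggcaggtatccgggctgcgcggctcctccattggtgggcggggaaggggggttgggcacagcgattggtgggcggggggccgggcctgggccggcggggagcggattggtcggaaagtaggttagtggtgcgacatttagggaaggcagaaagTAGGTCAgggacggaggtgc
Across 27025 genes with a window 8.09% hold the E-box and 2.97% the RORE on either strand. The windows of Nr1d1 hold neither, which says only that these letters are not in that stretch.

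Of 14 measured core clock genes 1 rose (0.36% of all features) and 2 fell (0.185%). Their median difference was -0.18 with all arrays and -0.03 without ZT14b and ZT14d, against 0.01 over all features in each fit. The ZT18 arrays lay above the ZT14 arrays in 3 (6.51% of all features) and below them in 5 (4.67%). Per2, a light- and hormone-responsive repressor gene, measured 10.22, 10.75, 10.38 and 10.89 at ZT14 and 9.50, 9.13 and 9.17 at ZT18. Its arrays did not overlap, yet the difference of -1.29 ± 0.34 did not pass (adjusted p = 0.0949). Rora, an activator of Arntl, differed by 0.83 ± 0.22 (adjusted p = 0.092), Clock by 0.62 ± 0.20 (adjusted p = 0.214), Bhlhe40 by -0.97 ± 0.32 (adjusted p = 0.222) and Nr1d2 by -0.68 ± 0.24 (adjusted p = 0.281), and none of these groups overlapped. Cry1 differed by 0.48, Per1 by -0.74, Bhlhe41 by -0.50, Npas2 by 0.26, Cry2 by 0.20 and Per3 by 0.14, with adjusted p of 0.485 or more and overlapping arrays. The Nr1d2 groups were barely apart, with 9.86 the lowest ZT14 array and 9.84 the highest ZT18 array. Without ZT14b and ZT14d Nr1d2 differed by -0.20 (adjusted p = 0.889), while Rora differed by 1.01 and Clock by 0.57. ZT14b and ZT14d both lay above the other ZT14 arrays in 7 of the 14 genes (22.3% of all features) and below them in 0.

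Among genes that the clock controls, Rnf125 and Elovl3 rose and Dbp fell. Rnf125, an E3 ubiquitin ligase gene, measured 12.88, 12.01, 12.79 and 11.33 at ZT14 and 15.65, 16.03 and 15.70 at ZT18. The gap between the times was several times the spread within either. It rose by 3.54 ± 0.34, or 11.6-fold (adjusted p = 5.37e-06), and by 2.96 without the pair (adjusted p = 0.000185; range 5.99e-08 to 0.00132). Elovl3, which elongates very long-chain fatty acids, measured 12.06, 11.70, 12.66 and 13.01 at ZT14 and 16.00, 15.67 and 15.84 at ZT18. All ZT18 arrays were higher, and the rise of 3.48 ± 0.37, or 11.2-fold (adjusted p = 2.12e-05), was 3.48 without the pair (adjusted p = 0.000275; range 4.96e-06 to 0.000644). Dbp, which encodes a PAR bZIP activator that binds D-boxes, measured 13.27, 14.02, 12.97 and 12.89 at ZT14 and 11.13, 11.18 and 11.07 at ZT18. The ZT18 values were lower and close together. It changed by -2.16 ± 0.42 (adjusted p = 0.016), but did not pass without the pair (-1.99, adjusted p = 0.156), without ZT14b alone, or without any single ZT18 array (range 0.00177 to 0.156). Of 14 measured clock outputs 2 rose (0.36% of all features) and 1 fell (0.185%), with a median of -0.42. Without the pair 2 rose and 0 fell, and the median was -0.06.

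The largest rise of all was in Depp1, a FOXO target linked to autophagy. It measured 6.43, 6.16, 8.55 and 5.32 at ZT14 and 10.76, 12.08 and 10.58 at ZT18. ZT14c was the highest of the ZT14 arrays and still below every ZT18 array. The rise was 4.53 ± 0.64, or 23.0-fold (adjusted p = 0.000748), and 3.65 without the pair (adjusted p = 0.0333; range 3.36e-05 to 0.0333). Aqp8, a water channel of hepatocytes, measured 9.05, 8.31, 9.12 and 8.04 at ZT14 and 11.84, 12.95 and 12.39 at ZT18. It rose by 3.76 ± 0.48, or 13.6-fold (adjusted p = 0.00019), and by 3.31 without the pair (adjusted p = 0.0197; range 1.42e-05 to 0.0197). Both changes held in each single-array omission.

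Coq8a, Clpx and Hacl1 were among the other large rises. Coq8a, needed for coenzyme Q synthesis, measured 13.59, 12.69, 13.96 and 12.95 at ZT14 and 15.22, 15.34 and 15.17 at ZT18. It rose by 1.95 ± 0.25 (adjusted p = 0.00019), and by 1.47 without the pair (adjusted p = 0.0186; range 6.86e-06 to 0.0216). Clpx, the unfoldase of a mitochondrial protease, measured 11.27, 11.20, 11.39 and 11.10 at ZT14 and 12.92, 13.17 and 12.94 at ZT18. Its ZT14 arrays spanned a narrow range and the rise of 1.77 ± 0.21 (adjusted p = 0.000111) was 1.68 without the pair (adjusted p = 0.00926; range 4.96e-06 to 0.00926). Hacl1, a peroxisomal lyase of fatty acid alpha-oxidation, measured 13.99, 12.88, 14.01 and 13.50 at ZT14 and 15.38, 15.66 and 15.20 at ZT18. It rose by 1.82 ± 0.29 (adjusted p = 0.00235), and without the pair it was 1.41 and did not pass (adjusted p = 0.0846; range 0.000118 to 0.0846).

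Hacl1 was 1 of 8 among the 15 largest rises that lost their call without the pair. Cyp8b1 and Ppp1r3c, also among the 8, are described with the bile acid and glycogen genes. B3galt1, a galactosyltransferase gene, rose by 2.65 ± 0.56 (adjusted p = 0.0279) and Sucnr1, the succinate receptor gene, by 2.45 ± 0.44 (adjusted p = 0.00729). Cyp4a32, a fatty acid hydroxylase gene with close paralogs that an array probe may not separate, rose by 1.96 ± 0.41 (adjusted p = 0.0234). Tlcd2, a membrane lipid regulator, rose by 1.87 ± 0.33 (adjusted p = 0.00574) and Cdc14b, a phosphatase gene, by 1.85 ± 0.33 (adjusted p = 0.00775). Without ZT14b and ZT14d the differences were 1.79, 1.77, 1.16, 1.55 and 1.54, with adjusted p from 0.145 to 0.397. Sucnr1 also fell short of the threshold without ZT18b, Tlcd2 without ZT18a or ZT18b, and Cdc14b without ZT18b or ZT18c. B3galt1 did so without ZT14b, ZT14d or any ZT18 array, and Cyp4a32 without ZT14b, ZT14d, ZT18b or ZT18c.

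In the glycogen list Ppp1r3c and Phka2 rose, regulators of synthesis and of breakdown. Ppp1r3c, which encodes the scaffold that brings protein phosphatase 1 to glycogen, measured 12.47, 12.36, 13.03 and 12.43 at ZT14 and 14.63, 14.15 and 14.46 at ZT18. The rise was 1.84 ± 0.28, or 3.58-fold (adjusted p = 0.00186), in every single-array omission as well, and 1.66 without the pair, just short of the threshold (adjusted p = 0.0513; range 0.000197 to 0.0599). Phka2, the liver regulatory subunit of phosphorylase kinase, measured 9.05, 9.66, 9.45 and 9.21 at ZT14 and 10.48, 10.37 and 10.36 at ZT18. The times were apart and the rise was 1.06 ± 0.21 (adjusted p = 0.017), or 1.15 without the pair (adjusted p = 0.0737; range 0.00232 to 0.103). It fell short without ZT14a, ZT14d or any ZT18 array. Of 13 measured glycogen genes 2 rose (0.36% of all features) and 0 fell (0.185%), with a median of 0.14 (0.06 and 0 calls without the pair).

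Cholesterol synthesis genes shared 1 direction, though few passed. Of 20 measured genes 3 rose (0.36% of all features) and 0 fell (0.185%). All 20 differences were above 0 (11401 of all 22206 features), and their median was 0.76, against 0.01 over all features. The ZT18 arrays lay wholly above the ZT14 arrays in 14 of the 20 (6.51% of all features). Hmgcs1, which makes HMG-CoA at the head of the pathway, measured 13.33, 13.97, 13.48 and 13.94 at ZT14 and 15.13, 15.01 and 14.95 at ZT18. The ZT14 values were all lower, and the rise was 1.35 ± 0.26 (adjusted p = 0.0149). Fdft1, the squalene synthase gene, measured 11.55, 11.72, 11.43 and 12.11 at ZT14 and 12.70, 12.80 and 12.66 at ZT18 and rose by 1.02 ± 0.23 (adjusted p = 0.0347). Mvd, a decarboxylase of the mevalonate steps, measured 6.84, 6.37, 7.16 and 7.06 at ZT14 and 8.13, 8.15 and 8.16 at ZT18 and rose by 1.29 ± 0.30, close to the threshold (adjusted p = 0.0496).

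ZT14b and ZT14d lay above the other ZT14 arrays in 11 of these 20 genes (22.3% of all features) and below them in 0 (22.7%). Without the pair the median was 0.95, and Hmgcs1 (1.62, adjusted p = 0.0268; range 0.0031 to 0.0949) and Dhcr7, the last enzyme of the pathway, were called. Dhcr7 was named after its values were seen. It measured 10.36, 12.35, 10.83 and 12.16 at ZT14 and 12.58, 12.70 and 12.29 at ZT18, so ZT14b and ZT14d lay close to the ZT18 arrays. Its difference was 1.10 ± 0.38 with all arrays (adjusted p = 0.258) and 1.93 without the pair (adjusted p = 0.0244). Fdft1 (1.23, adjusted p = 0.0626; range 0.00966 to 0.211) and Mvd (1.15, adjusted p = 0.312; range 0.00997 to 0.312) did not pass there, and each lost its call in 6 of the 7 single-array omissions. Hmgcs1 lost its call without any single ZT18 array.

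The Hmgcs1 window (chr13:119690101-119690400, plus strand) is shown because it holds the sterol element letters TCACNCCAC, read as a site for the sterol-sensing SREBP factors, at -137 from the start.
Hmgcs1: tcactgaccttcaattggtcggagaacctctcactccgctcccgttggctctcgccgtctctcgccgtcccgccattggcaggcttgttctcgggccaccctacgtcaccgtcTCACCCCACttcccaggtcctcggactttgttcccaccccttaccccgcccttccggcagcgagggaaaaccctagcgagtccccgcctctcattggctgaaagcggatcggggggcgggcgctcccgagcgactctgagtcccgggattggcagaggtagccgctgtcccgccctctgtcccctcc
These letters lie in 1.44% of all genes with a window, in 2 of 63 rising genes with a window (3.17%) and in 0 of 32 falling ones. The other rising gene is Camk1d.

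In the bile acid list Cyp8b1 rose, the sterol 12alpha-hydroxylase gene that directs synthesis to cholic acid. It measured 12.25, 9.71, 12.55 and 9.88 at ZT14 and 13.87, 13.66 and 13.61 at ZT18. ZT14b and ZT14d lay far below ZT14a and ZT14c, which themselves lay below every ZT18 array. The rise was 2.62 ± 0.48, or 6.13-fold (adjusted p = 0.00917), and 1.31 without the pair, which did not pass (adjusted p = 0.129; range 0.00024 to 0.141). It also lost its call without any single ZT18 array. Of 17 measured bile acid genes 1 rose (0.36% of all features) and 0 fell (0.185%), and the median was 0.53 with all arrays and 0.31 without the pair. ZT14b and ZT14d lay below the other ZT14 arrays in 10 of the 17 (22.7% of all features). Cyp7a1, the rate-limiting enzyme gene of the classic route, differed by 0.39 ± 0.40 (adjusted p = 0.837), a value named after it was seen.

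In the glycerolipid list Gpam and Lpin2 rose and Pnpla2 fell, and without ZT14b and ZT14d only Gpam was called. Gpam, which encodes the first acyltransferase of triglyceride synthesis, measured 14.99, 15.08, 15.31 and 15.09 at ZT14 and 16.27, 16.57 and 16.28 at ZT18. The ZT18 arrays were all higher, and it rose by 1.26 ± 0.20 (adjusted p = 0.00222), by 1.22 without the pair (adjusted p = 0.0455; range 0.000201 to 0.0471), and in every single-array omission. Lpin2, a phosphatidate phosphatase gene later in the same route, measured 12.29, 12.62, 12.60 and 11.99 at ZT14 and 13.54, 14.60 and 13.80 at ZT18. It rose by 1.60 ± 0.30 (adjusted p = 0.00917), but was 1.53 without the pair (adjusted p = 0.102; range 0.00148 to 0.14) and fell short without ZT18b, its highest array. Pnpla2, the adipose triglyceride lipase gene, measured 11.79, 12.33, 11.98 and 11.76 at ZT14 and 10.90, 10.74 and 10.95 at ZT18. It changed by -1.10 ± 0.24 (adjusted p = 0.0303), and by -1.02 without the pair (adjusted p = 0.244; range 0.00401 to 0.244). It lost its call without ZT14b, ZT14d or any ZT18 array. Of 16 measured genes 2 rose (0.36% of all features) and 1 fell (0.185%), with a median of -0.09 (-0.22 without the pair).

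The largest fall was in Mt1, and its family member Mt2 fell with it. Mt1, which encodes a zinc-binding protein induced by glucocorticoids and metals, measured 14.22, 14.16, 14.81 and 13.47 at ZT14 and 9.37, 10.25 and 9.76 at ZT18. The times were wide apart, and the change was -4.37 ± 0.70, or 20.7-fold lower (adjusted p = 0.00222). Without ZT14b and ZT14d it was -4.72 (adjusted p = 0.0244; range 2.02e-05 to 0.0244). Mt2, another metallothionein gene, measured 10.74, 11.40, 10.75 and 10.21 at ZT14 and 7.59, 8.44 and 7.57 at ZT18. It changed by -2.91 ± 0.63 (adjusted p = 0.0307), and by -2.88 without the pair, of like size but not past the threshold (adjusted p = 0.207; range 0.000473 to 0.207). It lost its call in 6 of the 7 single-array omissions, all but that of ZT14c.

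Lcn2, an iron-sequestering lipocalin gene, measured 8.84, 9.29, 6.74 and 8.05 at ZT14 and 5.49, 5.22 and 6.11 at ZT18. It changed by -2.62 ± 0.58 (adjusted p = 0.0347), by -2.18 without the pair (adjusted p = 0.312; range 0.00571 to 0.312), and lost its call in the same 6 omissions as Mt2. Of 16 measured glucocorticoid-responsive genes 0 rose (0.36% of all features) and 3 fell (0.185%), Mt1, Mt2 and Lcn2. The differences of 6 of the 16 were above 0, up to 1.12. The median was -0.42 with all arrays and -0.21 without the pair, where Mt1 alone was called. Saa2, a serum amyloid gene of the acute phase, measured 10.25, 8.94, 8.26 and 8.85 at ZT14 and 6.40, 5.94 and 7.51 at ZT18. It changed by -2.46 ± 0.50 (adjusted p = 0.0203), by -2.64 without the pair (adjusted p = 0.106; range 0.00426 to 0.2), and lost its call without ZT14a, ZT14b, ZT18a or ZT18b. It has a near-identical neighbour, Saa1, which differed by -1.81 ± 0.44 (adjusted p = 0.0625), and the probes of these neighbours may share signal. Saa1 was named after its values were seen. Of 18 acute phase genes 0 rose (0.36% of all features) and 2 fell (0.185%), Saa2 and Lcn2, with a median of -0.19 (-0.27 and 0 calls without the pair).

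In the heat shock list Hspa1b, Hspa1a and Dnajb1 fell. Hspa1b, which encodes an inducible HSP70 chaperone, measured 9.18, 8.90, 7.13 and 8.81 at ZT14 and 6.13, 6.05 and 6.38 at ZT18. ZT14c was the lowest ZT14 array and still above every ZT18 array. The change was -2.32 ± 0.32, or 4.99-fold lower (adjusted p = 0.000748), -1.97 without the pair (adjusted p = 0.032; range 3.58e-07 to 0.0452), and it held in every single-array omission. Hspa1a, its near-copy, changed by -1.08 ± 0.22 (adjusted p = 0.0234) and Dnajb1, an HSP40 cochaperone gene, by -1.81 ± 0.35 (adjusted p = 0.0154). Without the pair these were -0.78 (adjusted p = 0.324; range 0.00244 to 0.324) and -1.39 (adjusted p = 0.273; range 0.00175 to 0.273). Hspa1a lost its call in 6 of the 7 single-array omissions and Dnajb1 without ZT14b, ZT14d, ZT18b or ZT18c. Of 12 measured heat shock and cold-inducible genes 0 rose (0.36% of all features) and 3 fell (0.185%). The differences of 10 lay below 0 (10799 of all 22206 features), and the list median was -0.44 (-0.29 without the pair, with Hspa1b the 1 call).

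The Hspa1b window (chr17:34959189-34959488, minus strand) is shown for the heat shock core letters GAANNTTC, part of the element that heat shock factors bind, at -104.
Hspa1b: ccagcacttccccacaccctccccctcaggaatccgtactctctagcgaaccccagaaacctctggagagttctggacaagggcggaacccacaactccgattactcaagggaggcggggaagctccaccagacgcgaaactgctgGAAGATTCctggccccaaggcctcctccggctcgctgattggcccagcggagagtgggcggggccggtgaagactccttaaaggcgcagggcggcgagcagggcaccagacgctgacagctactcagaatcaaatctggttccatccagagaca
The window of Hspa1a differs from it in 4 of 300 bases (98.67% identity), and the signals of so similar a pair may not be separable on the array. The core letters lie in 9.04% of all genes with a window and in 8 of 63 rising genes (12.7%). They lie in 4 of 32 falling genes (12.5%), which were Hspa1a, Hspa1b, Hspb8 and Rcan1.

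Among the remaining large falls most differed more with ZT14b and ZT14d than without. Mfsd2a, a lysophospholipid carrier gene, measured 11.42, 14.02, 11.00 and 13.87 at ZT14 and 9.60, 10.22 and 8.65 at ZT18. ZT14b and ZT14d were the highest arrays, and the change of -3.09 ± 0.69 (adjusted p = 0.0357) was -1.72 without them (adjusted p = 0.484; range 0.00266 to 0.484). Rcan1, which encodes a calcineurin inhibitor, measured 11.12, 12.58, 10.99 and 12.63 at ZT14 and 9.68, 9.45 and 9.51 at ZT18. It changed by -2.28 ± 0.38 (adjusted p = 0.00303), and by -1.51 without the pair (adjusted p = 0.117; range 0.000102 to 0.117). B4galt5, a glycosphingolipid synthase gene, changed by -2.04 ± 0.32 (adjusted p = 0.00204) and by -1.43 without the pair (adjusted p = 0.0779; range 9.18e-05 to 0.0779). Rnf145, an E3 ligase gene of the endoplasmic reticulum, changed by -1.84 ± 0.37 (adjusted p = 0.0181) and by -0.96 without it (adjusted p = 0.324). Gldn, at the low end of the scale at ZT18, changed by -1.86 ± 0.43 (adjusted p = 0.0465) and by -0.83 (adjusted p = 0.542).

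Steap4 went the other way. This metalloreductase gene measured 14.25, 12.96, 13.91 and 12.40 at ZT14 and 11.81, 11.85 and 11.78 at ZT18. ZT14a and ZT14c were its highest arrays, and the ZT18 arrays lay close together. The change was -1.57 ± 0.30 with all arrays (adjusted p = 0.0132) and -2.27 without ZT14b and ZT14d (adjusted p = 8.65e-05; range 7.5e-05 to 0.143). It lost its call without any single ZT18 array. Mfsd2a, Rnf145 and Gldn lost theirs without ZT14b, ZT14d or any ZT18 array, while B4galt5 and Rcan1 kept theirs in every single-array omission.

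Of 29 pathway lists 11 had a called member, and the calls of the last 2 of these follow. Ddit3, the stress-induced factor CHOP, changed by -1.27 ± 0.30 (adjusted p = 0.048) and was the 1 call among 20 unfolded protein response genes. The median of that list was 0.33 (0.24 without the pair), with 15 of 20 members above 0 (11401 of all 22206 features) and Ddit3 below it. Tk1, the thymidine kinase gene of DNA synthesis, rose by 1.26 ± 0.24 (adjusted p = 0.0112) and was the 1 call among 18 cell cycle genes, whose median was -0.30 with all arrays and 0.12 without the pair, a change of sign. ZT14b and ZT14d both lay above the other ZT14 arrays in 12 of these 18 genes (22.3% of all features). Without the pair the differences of Ddit3 and Tk1 were -1.21 (adjusted p = 0.296; range 0.0115 to 0.296) and 1.27 (adjusted p = 0.0819; range 0.00164 to 0.111), and neither passed. Ddit3 lost its call in 6 single-array omissions and Tk1 without ZT14b, ZT18a or ZT18b.

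The other 18 lists had 0 called members against 0.545% of all features. Immediate early genes leaned down, with 17 of 18 below 0 (10799 of all 22206 features) and a median of -0.38 (-0.35 without the pair). The lowest adjusted p there was that of Jund (-1.03, adjusted p = 0.175). Ribosome biogenesis genes leaned down too, with 20 of 23 below 0 and a median of -0.35 (-0.22 without the pair), led by Nop2 (-0.82, adjusted p = 0.14). Fatty acid oxidation genes had a median of 0.36 and Pdk4 the lowest adjusted p (1.12, adjusted p = 0.179). Fatty acid synthesis genes had a median of 0.14, and Acss2, the cytosolic acetyl-CoA synthetase gene, measured 10.56, 10.64, 10.70 and 10.79 at ZT14 and 11.75, 11.77 and 11.71 at ZT18. Its groups were tight and apart, and the difference of 1.07 ± 0.30 had an adjusted p of 0.123.

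Gluconeogenesis and glycolysis genes did not pass either, with medians of 0.06 and 0.25. Pck1, the gluconeogenic enzyme PEPCK, measured 16.79, 18.03, 16.65 and 18.09 at ZT14 and 16.04, 16.63 and 16.00 at ZT18, highest in ZT14b and ZT14d, and differed by -1.17 ± 0.41 (adjusted p = 0.271). Pklr, liver pyruvate kinase, differed by 1.23 ± 0.42 (adjusted p = 0.252). Insulin signalling, mTORC1 control, and adiponectin receptor and AMPK genes had medians of 0.03, 0.08 and 0.14, with the lowest adjusted p in Socs2 (0.75), Tsc1 (0.252) and Appl1 (0.26). In the lists of ribosomal proteins, the respiratory chain, drug metabolism, autophagy, phospholipid synthesis, the methionine cycle, amino acid catabolism, NAD and secreted regulators, medians ran from -0.06 to 0.24 with all arrays and from 0.02 to 0.28 without the pair. Got1, an aminotransferase gene, measured 12.94, 15.41, 12.73 and 15.15 at ZT14 and 12.15, 12.56 and 11.36 at ZT18, and Nnmt, which methylates nicotinamide, measured 13.56, 14.46, 12.05 and 15.05 at ZT14 and 12.19, 11.02 and 11.51 at ZT18. In both the differences (-2.03 and -2.21) had a wide spread at ZT14 and adjusted p of 0.216 and 0.252.

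**Figure D3:**
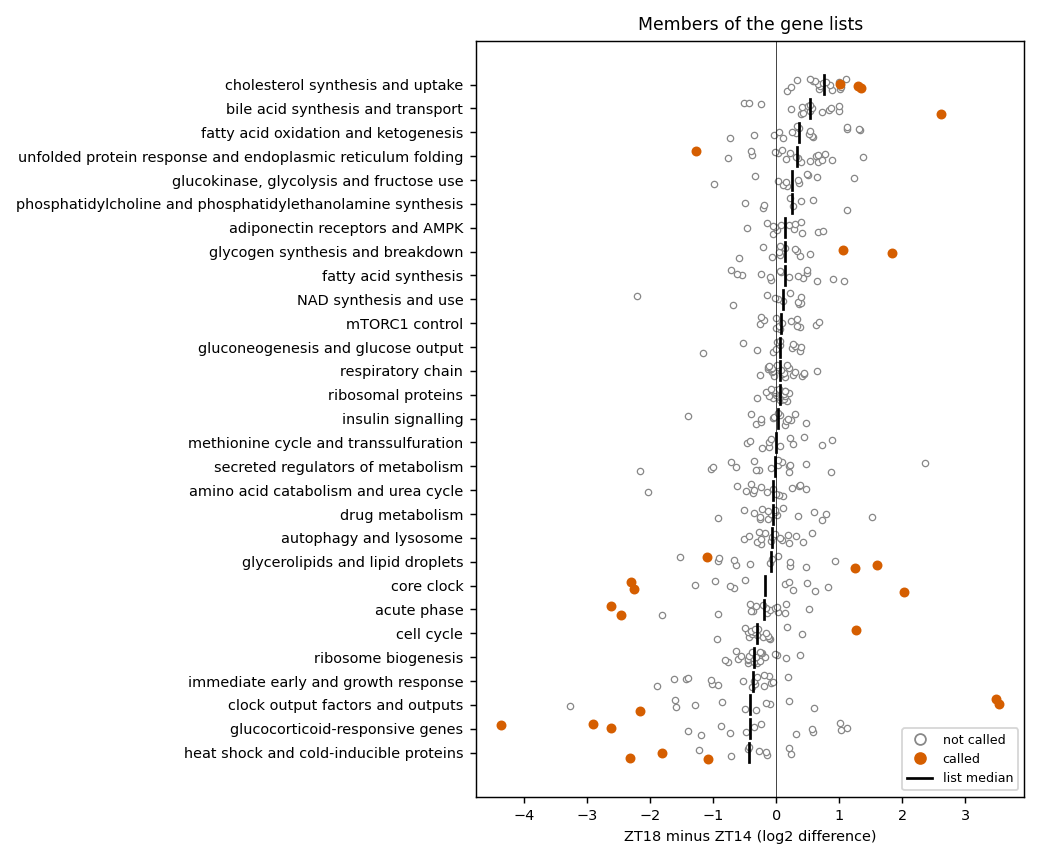
Difference ZT18 minus ZT14 (log2, horizontal axis) of each measured member of the 29 pathway lists, ordered by the list median (bar); filled points were called. The cholesterol list lies wholly above 0 with a median of 0.76, and the heat shock list has the lowest median, -0.44.

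Of the marker lists for other cells only the sinusoidal endothelium had a call, Kdr, the VEGF receptor gene, named after its values were seen. It measured 10.61, 10.80, 10.55 and 10.50 at ZT14 and 11.31, 11.64 and 11.53 at ZT18 and rose by 0.88 ± 0.20 (adjusted p = 0.0347), and by 0.91 without the pair (adjusted p = 0.2). Kdr was 1 of 8 measured endothelial markers (0.36% of all features rose). The differences of 6 of the 8 lay above 0 and of 2 below, from -0.68 to 0.88. Their median was 0.29 with all arrays, and 0.31 with 0 calls without the pair. The sum of the 8 endothelial markers was 12.63 to 13.12 at ZT14 and 13.09 to 13.45 at ZT18, with ZT14a inside the ZT18 range. Its part in the other results was not tested.

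The step was set against its neighbours. The change from ZT14 to ZT18 minus that from ZT10 to ZT14 passed in 138 features (0.621%), 81 with a more positive slope after ZT14 (0.365%) and 57 with a more negative one (0.257%). The steps share the ZT14 arrays, which the contrast takes into account, and a single odd ZT14 level moves both in opposite ways. Without the 5 arrays of the series high in Tff3 it passed in 25. Leaving out ZT14b gave 48, ZT14d 53, ZT14c 275, ZT18a 81, ZT18b 75 and ZT18c 78.

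The largest turns upward were those of Depp1, Hsd3b5, Rnf125, Aqp8, Cyp8b1 and B3galt1. In each of them ZT14b and ZT14d lay below ZT14a and ZT14c. Turns of single genes are given with all arrays only, so which of them would pass without this pair is not shown. Depp1 went by -2.35 from ZT10 to ZT14 and by 4.53 from ZT14 to ZT18, a turn of 6.88 ± 1.06 (SE; adjusted p = 0.0018). Rnf125 went by -1.63 and then by 3.54, a turn of 5.17 ± 0.56 (adjusted p = 5.53e-05). Hsd3b5, a steroid-metabolising enzyme gene that is high in male liver, measured 14.04, 11.36, 15.53 and 11.79 at ZT14 and 15.72, 15.75 and 15.95 at ZT18. ZT14b and ZT14d were its lowest arrays, and the turn of 6.11 ± 1.34 (adjusted p = 0.0277) stood beside a ZT18 minus ZT14 difference that did not pass (2.63, adjusted p = 0.183). Lpin2 was low at ZT14, with -1.88 before it and 1.60 after it, a turn of 3.49 ± 0.49 (adjusted p = 0.000597). It was about as low again at ZT22 (12.81, 11.56, 12.51 and 12.78).

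The largest turns downward were those of Angptl8, Mt1, G0s2, Mfsd2a, Lcn2 and Rcan1. ZT14b and ZT14d both lay above the other ZT14 arrays in Angptl8, Mfsd2a and Rcan1, and both below them in Mt1 and G0s2. In Lcn2 they did neither. Angptl8, a feeding-induced secreted inhibitor of lipoprotein lipase, measured 13.72, 14.97, 14.16 and 14.20 at ZT14 and 13.52, 10.29 and 12.49 at ZT18. It had gone up by 6.07 from ZT10 to ZT14 and differed by -2.16 after it, which did not pass (adjusted p = 0.175), a turn of -8.23 ± 1.09 (adjusted p = 0.000366). G0s2, which inhibits the lipase that Pnpla2 encodes, measured 12.10, 12.01, 12.30 and 11.09 at ZT14 and 11.98, 8.88 and 10.19 at ZT18, with 3.97 before ZT14 and -1.52 after it, a turn of -5.50 ± 0.93 (adjusted p = 0.00342). In both, ZT18a lay near the ZT14 arrays and ZT18b was the lowest array. Hspa1b and Rcan1 had their highest mean at ZT14. Hspa1b went by 2.02 and then by -2.32 (turn -4.34 ± 0.53, adjusted p = 0.00022), and Rcan1 by 2.69 and then by -2.28 (turn -4.98 ± 0.62, adjusted p = 0.00022).

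Other genes moved the same way before and after ZT14, with no difference of slopes past the threshold. Arntl went by 1.78 before it and 2.02 after it, Nr1d1 by -2.44 and -2.27, and Dbp by -2.71 and -2.16. For these the test of a difference in slope gave adjusted p of 0.932, 0.954 and 0.849, with turns of 0.23 ± 0.52, 0.17 ± 0.53 and 0.55 ± 0.70 (SE). Ppp1r3c went by 2.85 and then by 1.84, a turn that did not pass (adjusted p = 0.414).

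Against the next step, from ZT18 to ZT22, 0 features passed (0%) in limma, with 1318 at an unadjusted p under 0.05. The lowest adjusted p, 0.0679, belonged to Lpin2, which went by 1.60 up to ZT18 and by -1.56 after it. Without ZT14c 6 features passed, and without ZT14a or ZT22c 1. The steps themselves held 381 calls from ZT10 to ZT14 (1.72%), 121 from ZT14 to ZT18 and 18 from ZT18 to ZT22 (0.0811%). Among named genes Npas2, a relative of Clock, went by 0.26 to ZT18 (adjusted p = 0.895) and by 3.12 from there to ZT22 (adjusted p = 0.000131), but the difference of its slopes did not pass (adjusted p = 0.174). Per3 went by 0.14 and then by -2.74 (adjusted p = 0.00114), with an adjusted p of 0.256 for the difference of its slopes.

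Across the 6 times the features that rose were lowest at ZT14 in 55 of 80 and at ZT10 in 20, and highest at ZT18 in 33, at ZT22 in 28 and at ZT2 in 14. Those that fell were highest at ZT14 in 35 of 41 and lowest at ZT18 in 16 and at ZT2 in 14. The choice of features by this contrast fixes part of these counts. Mean levels at ZT10, ZT14, ZT18 and ZT22 were 5.30, 7.08, 9.10 and 10.55 for Arntl, 12.02, 12.36, 15.84 and 17.27 for Elovl3, 8.97, 6.62, 11.14 and 9.60 for Depp1, 12.88, 14.16, 9.79 and 10.06 for Mt1 and 14.60, 13.68, 15.03 and 16.30 for Hmgcs1.

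**Figure D4:**
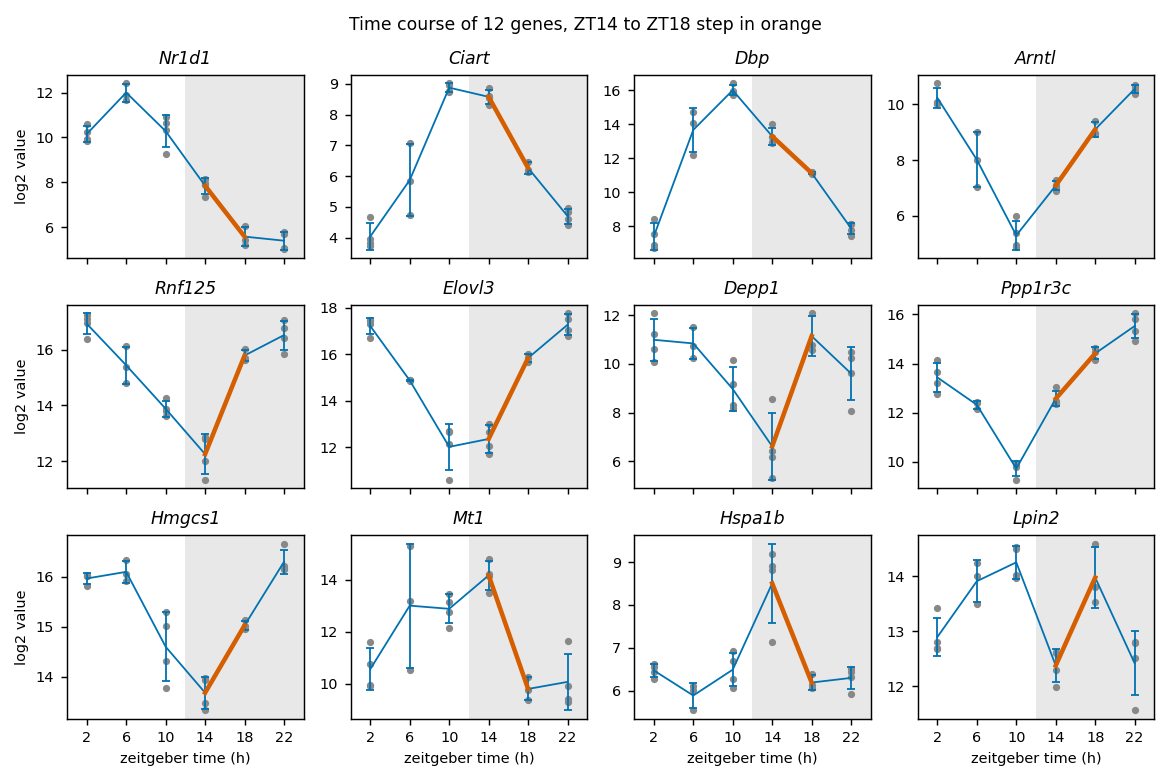
Expression value (log2 scale) over zeitgeber time (h) for 12 genes; dots are arrays, lines join means, bars are SD, the shaded part is darkness and the ZT14 to ZT18 step is orange. Nr1d1, Dbp and Arntl move the same way before and after ZT14, while Depp1, Rnf125 and Lpin2 have their lowest mean there and Hspa1b its highest.

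In 63 rising and 32 falling genes with a RefSeq window, the E-box lay in 5 of the first (7.94%: Aqp8, Galt, Lpin2, Ppp1r3c and Slc39a8) and in 5 of the second (15.6%: Ciart, Coq10b, Prpf3, Rcan1 and Rnf145). Its share over all genes with a window was 8.09%. The RORE lay in 3 rising genes (4.76%: Arntl, Galt and Tfpi2) and in 0 falling ones (2.97% of all genes with a window). The D-box letters TTANGTAA lay in 1 and 1 (2.72% of all genes with a window) and the cAMP element TGACGTCA in 1 and 2 (2.03%). The sterol and heat shock counts are given with their genes above. Such matches are descriptions of letters near annotated starts, not of binding.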

How the data were processed

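Liver RNA of 22 adiponectin-knockout mice at 6 times was measured on 22 arrays, of which the 4 of ZT14 and the 3 of ZT18 were compared. The authors deposited 1 value per feature and array with 2 decimals, which is read here as log2 from its range, since the base is not stated. For software, normalization, background correction and genome build: not given in the sources used here. Of 22206 features 19572 had 1 gene symbol and 2634 had none, and 19505 genes were named. All 19572 gene IDs were found in the RefSeq table (GRCm38.p6), which changed 0 symbols. A gene with several features is given by the one with the highest mean.

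Models were fitted with limma 3.58.1 in R 4.3.3 (lmFit and eBayes) to 6 time means over all 22 arrays, with no filter, and p-values were adjusted by Benjamini-Hochberg over all features (threshold 0.05). The fit was tested on simulated data. It recovered 24 of 50 log2 differences of size 1 and 49 of 50 of size 2, with 17 false calls. The simulated arrays had independent noise and no pair set apart like ZT14b and ZT14d, so this test cannot speak to that split. Where nothing says how mice were assigned, p-values measure only the spread between these samples. The replicate letters were checked as pairs: the deviations of same-letter arrays of the 2 times correlated at 0.0954, 0.0805 and 0.0199, so the letters were not taken to pair mice.

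Named genes were the 15 largest called differences in each direction with a group mean of at least 5 and no overlap of arrays, predicted genes left out, then all core clock genes, up to 4 called members per direction of each other list or else the 1 with the lowest adjusted p, the 6 largest called changes of slope in each direction, Adipoq and Tff3 (73 genes). Other genes given with a difference are marked as named after their values were seen. The comparison, the 29 pathway lists and the marker lists (593 genes, 527 measured) were chosen with earlier results of these data known, and no list was tested. Alternatives were other scalings, priors, weights, filters and thresholds, the letter as a block, the 7 arrays alone, omission of Tff3-high arrays and of single arrays. Promoter windows come from RefSeq, with chromosome 18, where Rnf125 lies, left out of all window counts. Of the 73 named genes 62 had one.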

Additional observations from a re-analysis of the deposited data

Results flagged for a closer look

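Within the 4 ZT14 arrays, 73 named genes were examined for a single array far from the rest, and chance flags about 1 in 20 such groups. Per1, a repressor gene of the clock, measured 6.41 in ZT14a, where the nearest of the other arrays was 7.87, a gap that takes up 0.830 of the range of the group. Ppp1r3c, the glycogen scaffold gene, measured 13.03 in ZT14c, where the nearest array was 12.47, a gap of 0.836 of the range.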

How the results depend on the processing

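Calls were not stable. Of 40 named genes that were called, 40 kept their direction under each of up to 16 alternative fits and 12 kept their call under each: Depp1, Aqp8, Rnf125, Elovl3, Arntl, Coq8a, Clpx, Gpam, Nr1d1, Ciart, Hspa1b and Mt1. Omitting arrays cannot turn a direction where the arrays of the 2 times do not overlap. The naming rule required this of the largest rises and falls, so their kept direction is no test of it. Of 33 named genes not called, 11 passed under some alternative. Omitting ZT14b and ZT14d ended 26 of the 40 calls. Against 80 rises and 41 falls, the counts were 41 and 20 with the 7 arrays alone, 27 and 9 at a threshold of 0.01, 291 and 198 with array weights, 132 and 66 among features above the median level, 20 and 11 without ZT14b and ZT14d, and 34 and 22 without the 5 Tff3-high arrays. The replicate block, with the letter as a term, gave 58 and 27 and ended 6 calls among the named genes. The letters share only a letter, though each ZT18 array correlated best with its own letter. Quantile normalization (62 and 38), median centring (79 and 38), a 1.5-fold minimum (80 and 41) and a trended robust prior (100 and 42) stayed closer. Single omissions gave 16 to 141 rises and 8 to 78 falls. The turn at ZT14 had 138 calls, and 47 at a threshold of 0.01, 266 among features above the median level, 25 without the 5 Tff3-high arrays, 121 with the replicate block, and 48 to 275 in single omissions. The comparison with the next step had 0, but 3 among features above the median level and 0 to 6 in single omissions. Adipoq, near background, changed sign from -0.12 to 0.14 without ZT14b and ZT14d and without the 5 Tff3-high arrays, to 0.15 without ZT14b and to 0.05 without ZT18c, with -0.31 the lowest value, without ZT14c. The cause was not tested. The number of arrays limits what small differences can pass.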

Other observations

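Several called genes lie outside the lists above and were picked after their values were seen. Cldn1 and Ocln, which encode tight junction proteins, rose. Cldn1 measured 10.83, 11.72, 11.64 and 11.68 at ZT14 and 12.90, 13.10 and 12.97 at ZT18, a rise of 1.52 ± 0.27 (SE; limma adjusted p = 0.00775), and it passed without ZT14b and ZT14d as well (1.76, adjusted p = 0.0268). Ocln rose by 1.29 ± 0.26 (adjusted p = 0.02) and was 0.99 without the pair (adjusted p = 0.303). Erbb3, which encodes a growth factor receptor, rose by 1.53 ± 0.24 (adjusted p = 0.00222) and was 1.08 without the pair (adjusted p = 0.0909). Lipg, the endothelial lipase gene, measured 9.45, 9.14, 8.87 and 8.72 at ZT14 and 7.90, 7.34 and 7.28 at ZT18. It changed by -1.54 ± 0.27 (adjusted p = 0.00579) and by -1.65 without the pair (adjusted p = 0.0355). Dusp6, a phosphatase gene of the ERK pathway, changed by -1.53 ± 0.31 (adjusted p = 0.0226) and by -1.07 without the pair (adjusted p = 0.275). Hspb8, a small heat shock protein gene that was not on the heat shock list, changed by -1.51 ± 0.30 (adjusted p = 0.0163) and by -1.15 without the pair (adjusted p = 0.29).

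Noct, a deadenylase-related gene with a nightly rhythm in liver, was also picked after its values were seen and had one of the largest differences that did not pass. It measured 9.85, 12.56, 9.16 and 12.57 at ZT14 and 8.24, 7.54 and 7.49 at ZT18. ZT14b and ZT14d were high, and all ZT18 arrays lay below every ZT14 array.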
